A study of Mus musculus with 8 samples.

Results

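The 9 genes described here encode the giant filament proteins and the crosslinkers of the sarcomere, and were read in whole tibialis anterior (TA) muscles of WT and dystrophic mdx5cv mice. They are *Ttn* (titin), *Neb* (nebulin), *Myom1*, *Myom2* and *Myom3* (myomesins), *Mybpc1* and *Mybpc2* (slow and fast myosin-binding protein C) and *Actn2* and *Actn3* (sarcomeric α-actinins). The rows were chosen by gene symbol, and all 9 were found among the 55401 genes of the table. Both groups were of the C57/Bl6 strain and 6 mo old, and each held 4 muscles. The mdx5cv mice carry a mutation of *Dmd*, the dystrophin gene, and serve as a model of Duchenne muscular dystrophy (DMD). The comparison of mdx5cv with WT muscle serves to find transcripts that differ in dystrophic muscle, and *Ttn*, *Myom1* and *Actn3* are of added interest because the study lists them among miR-486 target transcripts.

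In a sarcomere, titin spans from the Z-disc to the M-band and acts as a molecular spring, while nebulin lies along the thin filament and stabilizes its length. Myomesins crosslink myosin filaments and titin at the M-band, myosin-binding protein C sits on the thick filament and modulates crossbridges, and the α-actinins crosslink thin filaments of neighboring sarcomeres at the Z-disc. Several of these genes are described by fiber type. *Actn3* is restricted to fast fibers whereas *Actn2* is found in all fibers, and *Myom2* is the myomesin typical of fast fibers. *Mybpc2* and *Mybpc1* are named the fast and the slow myosin-binding protein C.

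The genes are also very different in size. *Ttn* lies on chromosome 2 from 76703980 to 76982547 on the minus strand (GRCm38, GENCODE M21), with 116.8 kb of merged exon and up to 347 exons in 1 transcript. *Neb*, on the same chromosome and strand from 52136647 to 52378474, has 26.6 kb of exon and up to 157 exons. The other 7 hold between 2.90 kb of exon in *Actn3* (chromosome 19, 4861216 to 4877909) and 10.5 kb in *Myom1* (chromosome 17, 71002633 to 71126856). *Myom2* lies on chromosome 8, *Myom3* on 4, *Mybpc1* on 10, *Mybpc2* on 7 and *Actn2* on 13. Of the genes that overlap a member, *Myl12a*, on the strand opposite *Myom1*, had normalized counts from 371 to 632, and the others in the table reached at most 5.73. Whether reads were counted by strand is not given in the sources used here, so how many reads of *Myom1* may belong to its neighbor cannot be told.

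RefSeq sequence of the promoter region was at hand for 6 of the 9 genes (*Ttn*, *Myom1*, *Myom3*, *Mybpc1*, *Mybpc2* and *Actn2*). The 250 bases before the RefSeq start are shown for 4 of them. *Ttn* and *Myom1* are shown because both were lower in every mdx5cv muscle than in any WT muscle. *Myom3* and *Actn2* are shown as genes whose groups overlapped. The groups of *Mybpc1* and *Mybpc2* also overlapped, and their windows are left out. Each sequence reads 5′ to 3′ on the strand of the gene (GRCm38.p6), and the capitals mark matches to 3 motifs of muscle transcription factors, searched on both strands. These were the general E-box (CANNTG), which includes the sites of MyoD but is not specific to it, the CArG box bound by SRF and the MEF2 box. Binding at these matches was not tested. None of the matches overlapped another.
*Ttn* (chr2:76982548-76982797, minus strand): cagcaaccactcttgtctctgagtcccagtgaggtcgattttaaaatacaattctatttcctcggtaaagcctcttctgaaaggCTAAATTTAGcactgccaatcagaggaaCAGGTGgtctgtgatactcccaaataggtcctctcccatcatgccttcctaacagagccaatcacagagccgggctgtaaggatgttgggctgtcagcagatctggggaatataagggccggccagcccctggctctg
*Myom1* (chr17:71019307-71019556, plus strand): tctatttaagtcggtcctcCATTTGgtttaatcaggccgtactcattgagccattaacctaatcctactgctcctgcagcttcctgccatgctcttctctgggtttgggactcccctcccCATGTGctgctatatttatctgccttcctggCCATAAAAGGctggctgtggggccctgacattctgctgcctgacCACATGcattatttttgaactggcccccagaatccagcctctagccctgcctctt
*Myom3* (chr4:135759465-135759714, plus strand): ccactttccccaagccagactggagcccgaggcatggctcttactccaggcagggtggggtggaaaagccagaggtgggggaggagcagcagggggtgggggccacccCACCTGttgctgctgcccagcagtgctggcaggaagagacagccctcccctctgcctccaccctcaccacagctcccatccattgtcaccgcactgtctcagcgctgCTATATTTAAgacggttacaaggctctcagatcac
*Actn2* (chr13:12340733-12340982, minus strand): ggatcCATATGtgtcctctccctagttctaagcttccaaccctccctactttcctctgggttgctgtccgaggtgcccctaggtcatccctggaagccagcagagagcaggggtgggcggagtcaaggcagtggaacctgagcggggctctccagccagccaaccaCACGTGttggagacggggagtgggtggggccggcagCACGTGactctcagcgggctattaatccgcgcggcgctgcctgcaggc

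An E-box was present in all 6 promoters, as in 66.2% of the 32851 promoters of the same length. The MEF2 box was found in *Ttn*, from 166 to 157 bases before the start, and in *Myom3*, from 35 to 26 bases before it, against 2.92% of all promoters. The CArG box was found in *Myom1* alone among the 6, from 99 to 90 bases before the start, against 1.47% of all promoters. The *Actn2* window held 3 E-boxes, of which 2 had the same core, CACGTG. E-boxes were the only matches in it and in the windows of *Mybpc1* and *Mybpc2*, which are not shown. The RefSeq start of *Myom1* is 16924 bases downstream of the GENCODE gene start, so its window lies within the gene and shares 36 bases with GENCODE exons. Likewise, 28 bases of the *Actn2* window lie in a GENCODE exon.

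The reads assigned to genes, recovered from the deposited values, numbered between 13175524 and 14921057 per library. Mitochondrial genes took 30.0% to 38.7% of them in WT and 25.3% to 32.1% in mdx5cv muscles. All shares of reads given here refer to reads assigned to genes. The deposited values are reads divided by a size factor for each library, here called normalized counts. *Dmd* was lower in mdx5cv muscles (3461 to 4400) than in WT muscles (6169 to 8155), a log2 fold change of -0.81 (adjusted p = 0.000177, limma). The skeletal muscle genes *Ckm*, *Acta1*, *Myh4*, *Ryr1* and *Cacna1s* were abundant in all libraries as the labelled tissue calls for. Of 4 heart genes, *Nppa* had no read in any library, and *Mybpc3* and *Tnni3* reached at most 2.83 and 4.79 normalized counts. *Myh6* was present in all, at 37.3 to 64.2 in WT and 5.56 to 29.2 in mdx5cv muscles. It was called lower (log2 fold change -1.52, adjusted p = 0.00989, limma). All 6 regenerating fiber markers, all 6 macrophage markers and 5 of 6 fibroblast markers were higher in mdx5cv, while 4 of 4 endothelial and 3 of 4 adipocyte markers were lower. Of the 13677 genes tested, 2743 were lower and 2854 higher at an adjusted p under 0.05, a split that became 820 lower and 5444 higher when every library was scaled to the same total. The labels do not say that the muscles came from separate mice, so the p-values measure the spread between these samples.

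Of the 9 genes, *Actn3* and *Myom1* were significantly lower in mdx5cv muscle and none was higher. All 9 passed the filter on low values, which kept genes with a mean of 10 or more. The call was an adjusted p under 0.05 from limma on log2(normalized count + 1), adjusted over all genes tested, and fold changes are on that log2 scale. The 2 lower genes of 9 stand against a background of 20.1% of all genes called lower and 20.9% called higher, so the share of calls was near that of genes in general. No member changed by 2-fold, whereas 3.27% of all genes were called lower and 10.3% higher at that size. In 4 of the 9 genes, *Ttn*, *Neb*, *Myom1* and *Actn3*, all mdx5cv muscles were below all WT muscles, against 19.8% of all genes. None of the 9 had all mdx5cv muscles above all WT muscles, against 20.3% of all genes. The median log2 fold change of the 9 genes was -0.28, compared with 0.00 for all genes tested.

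**Figure D1:**
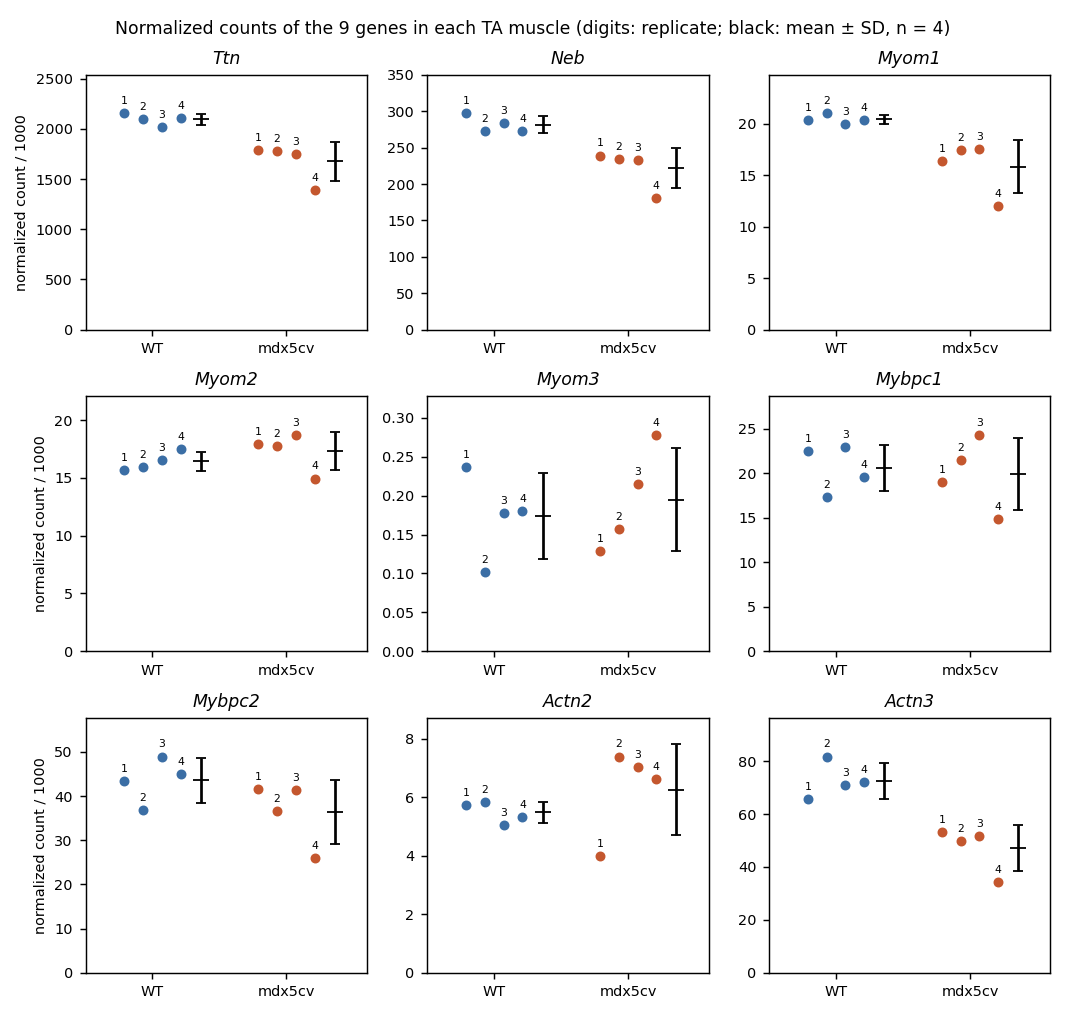
Normalized counts (divided by 1000, y axis from 0) of the 9 genes in 4 WT (blue) and 4 mdx5cv (orange) TA muscles, with the replicate number above each point and the group mean ± SD in black. On this deposited scaling every mdx5cv muscle was, for *Ttn*, *Neb*, *Myom1* and *Actn3*, below every WT muscle, and mdx5cv replicate 4 was the lowest of its group in all genes but *Myom3* and *Actn2*.

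Mean log2 normalized counts follow the reads of a gene and are not corrected for its length. By this measure *Ttn* ranked 2 among the 13677 genes tested. Its normalized counts were 2153607, 2093726, 2018589 and 2107891 in the WT muscles and 1788517, 1775037, 1754435 and 1388278 in the mdx5cv muscles. The groups did not overlap, and the WT muscles lay closer together than the mdx5cv muscles, with coefficients of variation of 2.68% and 11.5%. The mean of mdx5cv muscles was 80.1% of the WT mean, and the 3 muscles other than replicate 4 lay between 83.8% and 85.4% of it. The log2 fold change was -0.33 (standard error, SE, 0.51, 95% interval -1.43 to 0.77) and did not pass the test (adjusted p = 0.638, limma).

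The wide interval of *Ttn* was set by the variance model. The residual SD of *Ttn* itself was 0.13 on the log2 scale, whereas the trend fitted for genes at its abundance was 0.97, and limma worked with 0.72. Without the trend the standard error was 0.12 and the adjusted p was 0.0531. With counts recovered from the table, DESeq2 called *Ttn* lower (adjusted p = 0.00854) and the edgeR quasi-likelihood test did not (adjusted p = 0.222). An exact permutation test over the 8 muscles gave p = 0.0286 without adjustment, the smallest value that 4 against 4 samples can give. With libraries scaled to equal totals, the fold change of *Ttn* turned to 0.03.

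*Neb* followed *Ttn* closely. Its normalized counts were 296960, 272240, 284243 and 272252 in WT and 239218, 234114, 233222 and 181466 in mdx5cv muscles. Again no mdx5cv muscle reached the lowest WT muscle, and replicate 4 was the lowest of its group. The mdx5cv mean was 78.9% of the WT mean, a log2 fold change of -0.35 (SE 0.25, 95% interval -0.89 to 0.19) that did not pass the test (adjusted p = 0.285, limma). *Neb* was called without the variance trend (adjusted p = 0.0482) and in DESeq2 (adjusted p = 0.00745). It was not called in edgeR (adjusted p = 0.112) or with a robust fit of the variance trend (adjusted p = 0.0975). Under equal totals its log2 fold change turned to 0.01. The ratio of *Neb* to *Ttn*, which does not depend on the scaling, differed little between groups. Per kb of exon it was 0.606, 0.571, 0.619 and 0.568 in WT and 0.588, 0.580, 0.584 and 0.574 in mdx5cv muscles, a log2 difference of -0.02 (two-sided exact permutation p = 0.486). The mdx5cv muscles all fell within the WT range, including replicate 4, in which both genes were lowest.

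At the M-band, the 3 myomesin genes differed in level and in the direction of their fold changes. *Myom1*, which encodes the myomesin present in all striated fibers, had normalized counts of 20386, 21003, 19983 and 20325 in WT and 16347, 17462, 17520 and 12056 in mdx5cv muscles. The groups did not overlap, and the WT muscles varied by only 2.08% (coefficient of variation). *Myom1* was significantly lower in mdx5cv, at 77.6% of the WT mean, with a log2 fold change of -0.38 (SE 0.14, 95% interval -0.69 to -0.07, adjusted p = 0.0470, limma). This call was close to the threshold. Leaving out any 1 muscle other than mdx5cv replicate 2 ended it, with adjusted p-values of 0.0503 to 0.0939, and so did edgeR (0.0548), no variance trend (0.0566) and no filter on low values (0.143). It was also lost when centred on adult fiber genes (0.233), under equal totals without mitochondrial genes and *Ttn* (0.150) and under equal totals (0.871, log2 fold change -0.02). Without mdx5cv replicate 4 the log2 fold change was -0.26, and in DESeq2 the call held (adjusted p = 0.0154).

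*Myom2*, the fast-fiber myomesin, had normalized counts of 15694, 15941, 16590 and 17516 in WT and 17899, 17783, 18714 and 14948 in mdx5cv muscles. In 3 of the mdx5cv muscles it was above all WT muscles, and in replicate 4 it was below all of them. The log2 fold change was 0.07 (95% interval -0.19 to 0.34, adjusted p = 0.668, limma). When libraries were scaled to equal totals, *Myom2* was called higher, with a log2 fold change of 0.43 (adjusted p = 0.00646), and it was also called when libraries were centred on adult fiber genes (0.29, adjusted p = 0.0472). *Myom3*, a myomesin of slow and intermediate fibers, was rare in this muscle. Its normalized counts were 237, 102, 178 and 180.1 in WT and 129, 157, 215 and 278 in mdx5cv muscles, from 93 to 348 reads, and the groups overlapped throughout. The log2 fold change of 0.16 (95% interval -0.40 to 0.72, adjusted p = 0.656, limma) turned to -0.08 without WT replicate 2 and to -0.03 without mdx5cv replicate 4.

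The ratio of the 2 abundant myomesins does not depend on the scaling. The ratio of *Myom1* to *Myom2* per kb of exon was 1.10, 1.12, 1.02 and 0.982 in WT and 0.773, 0.831, 0.792 and 0.683 in mdx5cv muscles. No mdx5cv muscle reached the WT range, with a log2 difference of -0.46 that passed the test only before adjustment (two-sided exact permutation p = 0.0286, the smallest that the design allows, and 0.171 adjusted over the 6 ratios tested). Leaving out each muscle in turn kept the difference between -0.49 and -0.40. The ratios of *Myom3* to *Myom1* (p = 0.314) and to *Myom2* (p = 0.8) did not pass the same exact permutation test.

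**Figure D2:**
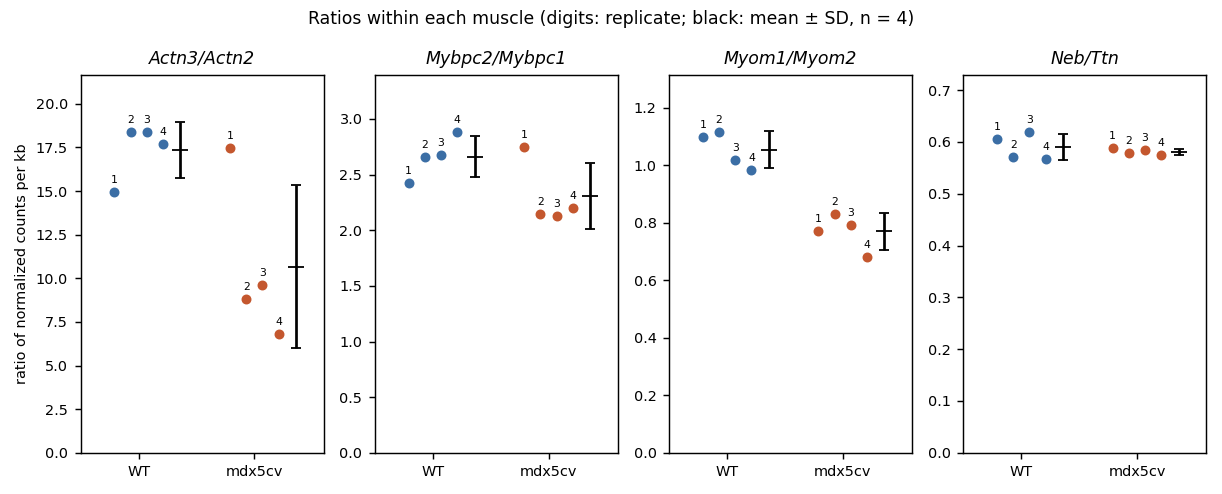
Ratios of normalized counts per kb of exon within each TA muscle (y axes from 0) for 4 pairs of genes, in 4 WT (blue) and 4 mdx5cv (orange) muscles, with replicate numbers and the mean ± SD in black. The *Myom1*/*Myom2* ratio was lower in every mdx5cv muscle (0.683 to 0.831) than in any WT muscle (0.982 to 1.12), mdx5cv replicate 1 was in the WT range for *Actn3*/*Actn2* and *Mybpc2*/*Mybpc1*, and *Neb*/*Ttn* was within the WT range in all mdx5cv muscles.

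On the thick filament, neither myosin-binding protein C gene passed the test. *Mybpc1*, named the slow isoform, had normalized counts of 22454, 17306, 22909 and 19578 in WT and 19006, 21436, 24273 and 14794 in mdx5cv muscles. Its groups overlapped, with a log2 fold change of -0.06 (95% interval -0.42 to 0.30, adjusted p = 0.792, limma), and the sign turned under equal totals (0.30) and without mdx5cv replicate 4 (0.07). *Mybpc2*, the fast isoform, had normalized counts of 43435, 36742, 48940 and 44993 in WT and 41642, 36697, 41282 and 25938 in mdx5cv muscles. Replicate 4 was far below the WT range, at 59.6% of the WT mean, and the other 3 mdx5cv muscles lay within that range or at its lower edge. The log2 fold change was -0.28 (95% interval -0.67 to 0.12, adjusted p = 0.253, limma), and it was -0.12 without mdx5cv replicate 4 and 0.08 under equal totals.

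The ratio of *Mybpc2* to *Mybpc1* per kb of exon was 2.43, 2.66, 2.68 and 2.88 in WT and 2.75, 2.15, 2.13 and 2.20 in mdx5cv muscles. In 3 mdx5cv muscles the ratio was below the WT range, whereas mdx5cv replicate 1 lay within it. The difference did not pass the test (log2 difference -0.21, exact permutation p = 0.114, 0.229 adjusted over the 6 ratios). The slow myosin gene *Myh7* was at 13.2 to 122 normalized counts in WT and 19.5 to 230 in mdx5cv muscles, far below *Mybpc1*. The ratio is therefore not read here as a measure of slow against fast fibers.

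At the Z-disc, *Actn3* had the lowest fold change of the 9 genes. The normalized counts of this fast-fiber α-actinin were 65563, 81776, 70971 and 72039 in WT and 53046, 49741, 51746 and 34435 in mdx5cv muscles. All mdx5cv muscles were below all WT muscles. *Actn3* was significantly lower, at 65.1% of the WT mean, with a log2 fold change of -0.64 (SE 0.19, 95% interval -1.04 to -0.23, adjusted p = 0.0155, limma). The call held when each muscle was left out in turn (adjusted p from 0.00914 to 0.0410), with edgeR (0.00978) and with DESeq2 (0.000160). It was lost with no filter on low values (0.0948) and under equal totals, where the log2 fold change was -0.28 (adjusted p = 0.111).

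*Actn2*, the α-actinin of all fibers, did not follow *Actn3*. Its normalized counts were 5729, 5822, 5055 and 5317 in WT and 3977, 7386, 7038 and 6629 in mdx5cv muscles. The mdx5cv muscles stood on both sides of the WT range, with replicate 1 below it at 72.6% of the WT mean and the other 3 above it at 121% to 135%. With all 8 muscles the log2 fold change was 0.15 (95% interval -0.22 to 0.52, adjusted p = 0.503, limma). Without mdx5cv replicate 1, *Actn2* was called higher, with a log2 fold change of 0.36 (adjusted p = 0.0349), and it was also called under equal totals (0.51, adjusted p = 0.0187).

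The ratio of *Actn3* to *Actn2* per kb of exon separated the same muscle. It was 14.97, 18.4, 18.4 and 17.7 in WT and 17.4, 8.81, 9.62 and 6.80 in mdx5cv muscles. In 3 mdx5cv muscles the ratio was far below the WT range and in replicate 1 it was inside it. The geometric mean was 17.3 in WT and 10.01 in mdx5cv (exact permutation p = 0.0571, 0.171 adjusted over the 6 ratios). The log2 difference of -0.79 became -1.06 without mdx5cv replicate 1 and -0.60 without replicate 4. Some genes of slow and oxidative fibers were also lowest in mdx5cv replicate 1, and others were not. *Myh2*, the myosin heavy chain of type 2A fibers, was at 714 normalized counts in it and at 5751, 5016 and 3955 in the other mdx5cv muscles. *Ankrd2*, a stretch-responsive titin partner of slow fibers, was at 39.8 against 204, 186 and 145, and *Myl3*, the slow essential myosin light chain, was at 4.63 against 48.0 to 52.2. The slow fiber genes *Myh7* (19.5, against 125, 176 and 230) and *Myl2* (0, against 23.6 to 34.2) were also lowest in it. In contrast, the slow troponin genes *Tnni1* (288, against 117, 177 and 522) and *Tnnc1* (107, against 59.4, 85.5 and 207) were not lowest in it. Neither were *Tnnt1* (90.8, against 85.8, 85.5 and 157) and *Atp2a2* (839, against 741, 886 and 1402). Of the 7 genes of the slow fiber list, 4 were called higher and 1 lower in mdx5cv. Their summed normalized count was 1350 in replicate 1 and 1202 to 2597 in the other mdx5cv muscles, against 747 to 834 in WT. In replicate 1 *Atp2a2* alone gave 839 of this sum, so the sum does not follow *Myh7*, *Myl2* and *Myl3*. Whether fiber composition had a part in the *Actn2* values was not tested.

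The scaling decides where 0 lies for all genes alike. The all-gene median moved from 0.00 on the log2 scale with the deposited size factors to 0.36 under equal totals and to 0.21 when centred on adult fiber genes. By construction each gene moves with that median, so its distance from the median is the same under each scaling and is no test of stability. As a description, *Actn3* lay at -0.64, *Myom1* at -0.39, *Neb* at -0.35, *Ttn* at -0.33, *Mybpc2* at -0.28 and *Mybpc1* at -0.07 from the median with the deposited size factors, and *Myom2* lay at 0.07, *Actn2* at 0.15 and *Myom3* at 0.15.

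**Figure D3:**
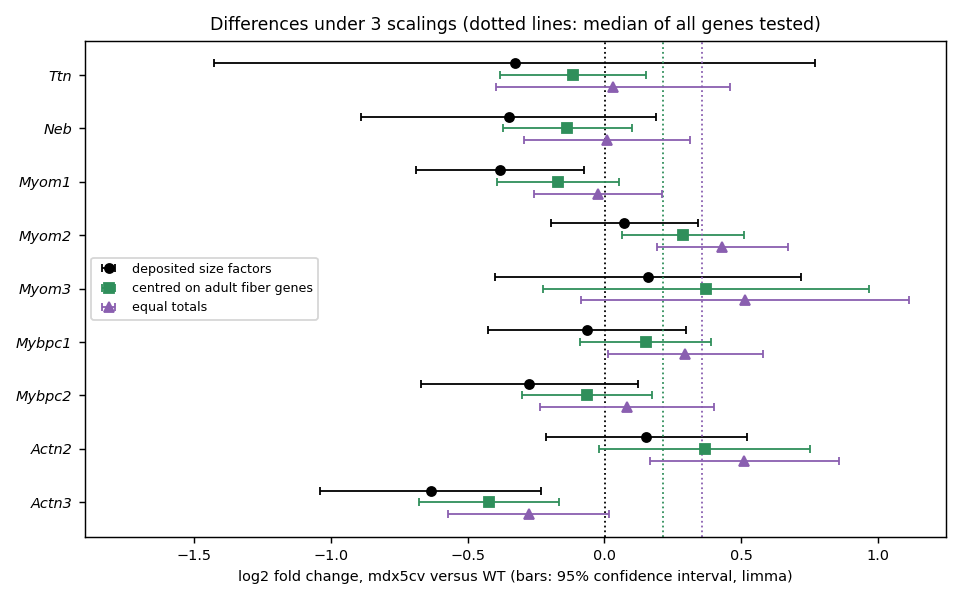
Log2 fold change of each gene in mdx5cv versus WT TA muscles (4 against 4) with its 95% confidence interval from limma, under the deposited size factors (black circles), centring on adult fiber genes (green squares) and equal totals (purple triangles). Dotted lines give the median of all genes under the same scaling (0.00, 0.21 and 0.36), and a scaling shifts all genes by the same amount, so that *Ttn* is at -0.33 with the deposited size factors and at 0.03 under equal totals.

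Markers of regenerating fibers and of other cells also differed between groups. The summed normalized counts of the 6 regenerating fiber markers, of which *Mymk* and *Chrng* were at 0 in 3 of the WT muscles, ranged from 244 to 366 in WT and from 2494 to 9043 in mdx5cv muscles, and those of the 6 macrophage markers from 481 to 746 and from 3565 to 8548. The 6 fibroblast markers, of which *Dcn* was not called, summed to 6387 to 9689 and to 22460 to 41026. Each of these 3 sums was highest in mdx5cv replicate 4, the muscle with the lowest *Ttn*, *Neb*, *Myom1*, *Myom2*, *Mybpc1*, *Mybpc2* and *Actn3*. The 8 fast fiber markers, of which 3 were lower, summed to 681193 in that muscle, against 982651 to 1047939 in the other mdx5cv and 846040 to 1096506 in WT muscles. In whole muscle, fewer fibers and less RNA of a gene per fiber cannot be told apart, and the part of these other cells in the lower members was not tested. Without mdx5cv replicate 4 the log2 fold changes were -0.49 for *Actn3*, -0.24 for *Ttn* and -0.26 for *Neb*.

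Per kb of exon, the 9 genes ranged over almost 3 orders of magnitude. In WT the mean normalized counts per kb were 25021 ± 2327 for *Actn3*, 17920 ± 480.0 for *Ttn*, 12054 ± 1408 for *Mybpc2*, 10587 ± 444 for *Neb* and 4542 ± 580 for *Mybpc1* (SD, n = 4). They were followed by *Myom1* at 1953 ± 40.6, *Myom2* at 1856 ± 91.9, *Actn2* at 1444 ± 94.6 and *Myom3* at 28.9 ± 9.19. *Mybpc2* and *Neb*, and *Myom1* and *Myom2*, were neighbors in this order whose values overlapped. In mdx5cv, *Actn3* (16285 ± 2980) and *Ttn* (14351 ± 1650) overlapped, and so did *Mybpc2* (10078 ± 2028) and *Neb* (8352 ± 1022). *Mybpc1* was at 4391 ± 887. *Myom1*, which was above *Myom2* in WT, came after *Myom2* (1958 ± 186) and *Actn2* (1649 ± 409) at 1515 ± 247, with overlap between *Myom2* and *Actn2* and between *Actn2* and *Myom1*, and *Myom3* was again last at 32.2 ± 10.97. These levels use the merged exons of all annotated transcripts, which overstates the length of a gene whose muscle isoform leaves exons out, as titin does.

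**Figure D4:**
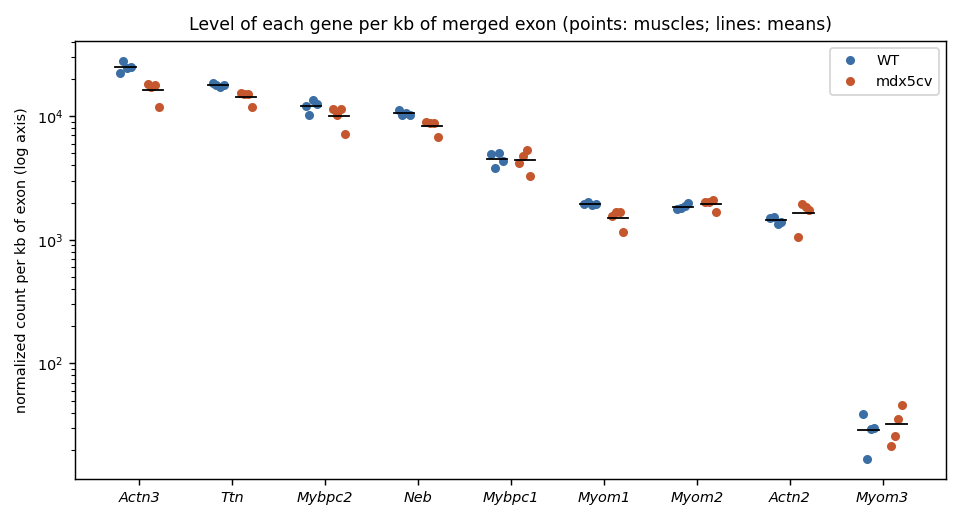
Normalized count per kb of merged exon (log axis) of each gene in 4 WT (blue) and 4 mdx5cv (orange) TA muscles, one point per muscle, with group means as black lines. The genes are ordered by their WT mean, from *Actn3* at 25021 to *Myom3* at 28.9, and *Actn3* and *Ttn* overlapped in mdx5cv but not in WT muscles.

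Together the 9 genes held 16.1% ± 0.897 of all reads in the WT group and 16.4% ± 1.07 in the mdx5cv group (SD, n = 4, two-sided exact permutation p = 0.657). Of the reads outside mitochondrial genes they held 24.9% ± 0.416 in WT and 22.9% ± 1.07 in mdx5cv (exact permutation p = 0.0286, the smallest possible), and every mdx5cv muscle was below every WT muscle. The 2 shares thus differed in sign, and the mitochondrial share of reads was lower in the mdx5cv muscles on average. Without *Ttn*, the other 8 genes held 2.91% ± 0.157 and 2.93% ± 0.236 of all reads (exact permutation p = 0.83).

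Within groups the members varied together to different extents. Over the 8 muscles, as deviations of log2 values from the group means, Pearson's r was 0.95 between *Ttn* and *Neb*, 0.95 between *Ttn* and *Myom1* and 0.90 between *Myom1* and *Actn3*. *Actn2* was apart, with an r of -0.20 to *Ttn* and -0.25 to *Actn3*, and *Myom3* had an r of -0.80 to *Actn3*. These values describe 8 muscles that share a scaling, and mdx5cv replicate 4 has a large weight in them. Among the 7641 genes compared (mean of at least 100), the closest to *Ttn* were *Tbx15* and *Gid4* (0.98 each), the closest to *Neb* were *Mapk1ip1* and *Sec61a2* (0.99 each) and the closest to *Myom1* were *Pfkm*, the muscle phosphofructokinase, and *Scn4b* (0.98 each). For *Actn3* they were *Arel1* and *Fam131a* (0.99 each), for *Mybpc1* *Pkp4* (0.99) and *Ndufa5* (0.98), and for *Mybpc2* *Arglu1* and *Pvalb* (0.98 each), the latter the calcium buffer of fast fibers. The closest to *Myom2* were *Napepld* (0.99) and *Pde4d* (0.98), to *Myom3* *Cpsf3* and *Ufm1* (0.96 each) and to *Actn2* *Stx8* (0.96) and *Rbpms* (0.95).

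The partners of these proteins were read from the same fit. Among 59 tested genes of 4 lists of structural partners (61 listed), 15 were lower and 8 higher in mdx5cv, against 20.1% and 20.9% of all genes, with a median log2 fold change of -0.14. Of 19 partners of titin and the M-band, 6 were lower and 3 higher, with a median of -0.34, and 1 was lower under equal totals and 2 when centred on adult fiber genes. The largest rises were those of *Ankrd1*, a titin N2A-binding ankyrin repeat protein, with a log2 fold change of 3.39 (adjusted p = 2.83e-09, limma), and *Igfn1*, an immunoglobulin-like protein of the Z-disc, at 2.74. *Ankrd1* had normalized counts of 69.9 to 94.0 in WT and 759 to 923 in mdx5cv muscles. Its relatives *Ankrd2* (-1.06) and *Ankrd23* (-0.83), which bind the same region of titin, had the largest falls. None of the 3 overlapped between groups. The call of *Ankrd2* (adjusted p = 0.0434) was lost in edgeR (0.0591), in DESeq2 (0.180) and under equal totals (0.133), and its log2 fold change was -0.53 without mdx5cv replicate 1, whereas those of *Ankrd1* and *Ankrd23* held under all alternatives.

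Of 15 partners of nebulin and regulators of thin filament length, 3 were lower and 2 higher, with a median of -0.05. *Lasp1*, an actin-binding protein of the nebulin family, was higher with a log2 fold change of 0.86, and *Lmod2*, an actin nucleator at the pointed end, at 0.67, although the groups overlapped for both. *Xirp2* (-0.74), an actin-binding repeat protein, and *Tmod4* (-0.60), the tropomodulin of fast fibers that caps the pointed end, were the largest falls, with *Tmod4* not called under equal totals (adjusted p = 0.102). Of 10 thick filament partners tested, 2 were lower and 1 higher, with a median of -0.12. *Mybph*, a short relative of myosin-binding protein C, rose by 1.83 on the log2 scale, while *Myl3* (-3.56) and *Myh2* (-1.54) were lower. The calls of *Mybph* and *Myh2* were lost in DESeq2, with adjusted p-values of 0.0830 and 0.110. That of *Mybph* was also lost with a robust fit of the variance trend. The number of these partners called lower fell from 2 to 1 under equal totals, without the variance trend and with its robust fit. It was also 1 with at least 10 in every sample, without WT replicate 1 and without WT replicate 4.

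Of 15 Z-disc partners, 4 were lower and 2 higher, with a median of -0.02. *Myot* (-0.94) and *Myoz2* (-0.84), which both bind α-actinin, were the largest falls, the latter not called under equal totals (adjusted p = 0.0922). The 2 higher genes were the non-muscle α-actinins, *Actn1* at 1.65 (adjusted p = 5.58e-05, limma) and *Actn4* at 0.93 (adjusted p = 0.00293). The α-actinin genes thus went different ways on the deposited scaling, where the non-muscle genes rose, *Actn3* fell and *Actn2* was not called, whereas under equal totals *Actn2* was called higher and *Actn3* was not called. Among the other relatives of the members, *Obsl1*, which binds titin and myomesin at the M-band, was higher at 0.67 (adjusted p = 0.000687, limma), and *Nebl*, a shorter relative of nebulin, was not called (-0.57, adjusted p = 0.275). The cardiac gene *Mybpc3* and *Mybphl* had normalized counts of at most 2.83 and were not tested.

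**Figure D5:**
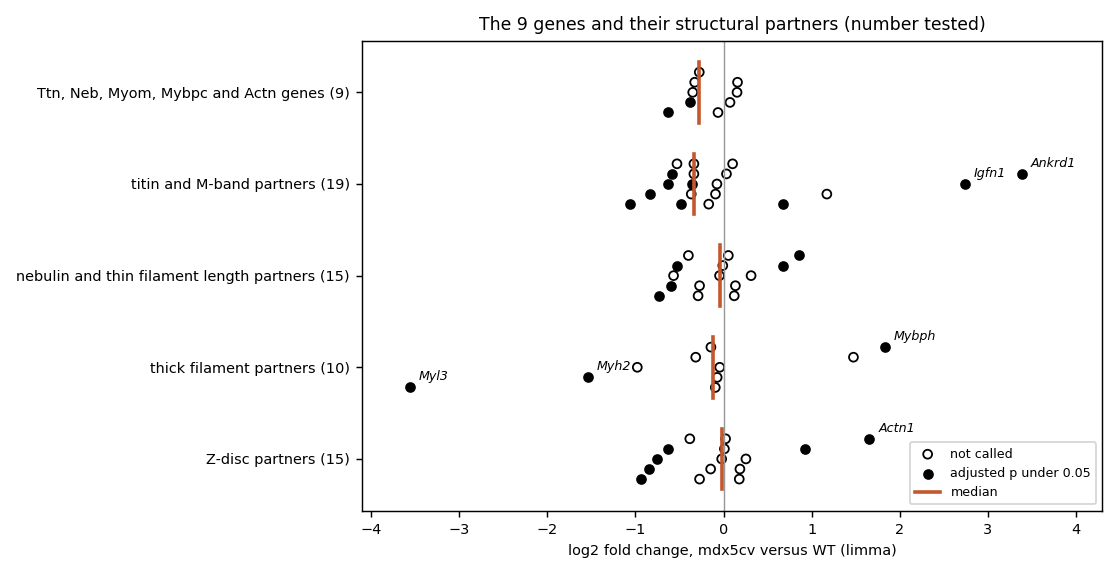
Log2 fold changes (limma, mdx5cv versus WT, 4 against 4 muscles) of the 9 genes and of 4 lists of structural partners, one point per gene, filled where the adjusted p was under 0.05, with the median of each list in orange and the number tested in brackets. The medians run from -0.34 to -0.02, and *Ankrd1* (3.39) and *Myl3* (-3.56) lie farthest out.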

How the data were processed

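Total RNA of TA muscles was sequenced from stranded libraries depleted of ribosomal RNA. The deposited table gives a signal for every gene, made by the authors from read counts over a library-wide size factor. The submitters' processing notes name, without roles, Trim Galore 0.6.4, STAR 2.6.0c, SAMtools 1.9, featureCounts and DESeq2 1.26.0 with mm10. Whole reads were recovered for 100% of the values (within 0.01 of a whole number). As these files hold no counts, limma 3.58.1 in R 4.3.3 was fitted with a variance trend to log2 values (pseudocount 1), two-sided, and p-values were adjusted (Benjamini-Hochberg) over 13677 genes whose mean was 10 or more. edgeR 4.0.16 and DESeq2 1.42.0 on recovered reads were alternatives, as were the pseudocount, filter, scaling, variance model, replicate block and muscles left out. The adult fiber genes used for centring were *Ckm*, *Acta1*, *Atp2a1*, *Ryr1*, *Cacna1s*, *Pygm*, *Eno3*, *Aldoa*, *Pvalb* and *Mylpf*. Ratios and shares were tested with exact permutation over 70 splits. Named were the members, their relatives (except 1 not reported here), *Dmd*, the 2 largest called rises and falls of each partner list, and the 2 genes most like each member. *Myl12a* and *Dcn* and the fiber and marker genes given beside results were named after their values were seen. The members and lists were chosen with earlier results of these data known. Of the gene IDs, 55141 of 55401 are in GENCODE M21 (versions ignored). How reads that match several places were counted, which bears on the repeated modules of *Ttn* and *Neb*, is not given in the sources used here. The scripts were tested on simulated data.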

Additional observations from a re-analysis of the deposited data

Results flagged for a closer look

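For each of the 9 genes, the 6 ratios and the share of reads, the gap of the highest or lowest muscle of a group to its nearest neighbor was divided by the range of the group. In 4 of 32 sets of 4 muscles 1 muscle stood apart by more than Dixon's test allows at 95%, and chance alone gives about 1.6. The log2 normalized counts of mdx5cv replicate 4 were 20.40 for *Ttn* (20.74 to 20.77 in the other 3), 17.47 for *Neb* (17.83 to 17.87) and 15.07 for *Actn3* (15.60 to 15.70). These genes vary together, so the 3 are not independent. In mdx5cv replicate 1 the log2 ratio of *Mybpc2* to *Mybpc1* was 1.46, against 1.09 to 1.14 in the other 3.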

How the results depend on the processing

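The number of members called lower, 2 with all muscles, was 0 with no filter on low values and under equal totals. It was 1 under equal totals without mitochondrial genes and *Ttn*, when centred on adult fiber genes, in edgeR and without mdx5cv replicates 1 and 4 together, and 4 in DESeq2 and in the unadjusted exact permutation test. The joint omission and the permutation test were added after seeing the data. The number called higher, 0 with all muscles, was 2 under equal totals and 1 under equal totals without mitochondrial genes and *Ttn*, when centred on adult fiber genes and without mdx5cv replicates 1 and 4. Leaving out each muscle in turn gave 1 to 2 members lower and 0 to 1 higher. Signs turned under equal totals for *Ttn* (0.031), *Neb* (0.0083), *Mybpc1* (0.30) and *Mybpc2* (0.083). *Mybpc1* also turned under equal totals without mitochondrial genes and *Ttn* (0.12), when centred on adult fiber genes (0.15), without mdx5cv replicate 4 (0.07) and without mdx5cv replicates 1 and 4 (0.16), and *Myom3* without WT replicate 2 (-0.077) and without mdx5cv replicate 4 (-0.033), its range with muscles left out being -0.077 to 0.34. The member share of reads differed by 0.31 percentage points, by -1.96 outside mitochondrial genes and by -0.16 to 0.76 with muscles left out. The log2 differences of the ratios with muscles left out ran from -1.06 to -0.60 for *Actn3*/*Actn2*, -0.30 to -0.17 for *Mybpc2*/*Mybpc1*, -0.49 to -0.40 for *Myom1*/*Myom2*, 0.22 to 0.74 for *Myom3*/*Myom1*, -0.18 to 0.28 for *Myom3*/*Myom2* and -0.04 to 0.00 for *Neb*/*Ttn*.

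Partners called lower (15) were 6 under equal totals and 9 when centred on adult fiber genes, and those called higher (8) were 20 under equal totals, with 11 to 17 lower and 8 to 10 higher when muscles were left out. Of all genes, 820 were lower under equal totals, 1548 under equal totals without mitochondrial genes and *Ttn*, 1034 when centred on adult fiber genes and 1509 without mdx5cv replicates 1 and 4, and 5444 and 1719 were higher under the first and the last of these. At 2-fold, 275 genes were lower with at least 10 in every sample, 210 under equal totals and 279 when centred, and 2202 were higher with no filter, 729 with at least 10 in every sample and 2256 under equal totals. With muscles left out, 2248 to 2625 genes were lower and 2426 to 2853 higher, and at 2-fold 379 to 521 and 1216 to 1470. The causes of these shifts were not tested.

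With the replicate number as a replicate block, 2 members were lower and 0 higher. The deviations of same-numbered muscles correlated between 0.03 and 0.15, and those of differently numbered muscles between -0.15 and 0.07. Each muscle had 4 possible partners in the other group, and 5 of 8 muscles correlated best with their own number. These low correlations do not settle whether the numbers mark pairs, and the main test treated the muscles as unpaired. At this depth counting error was largest for *Myom3*, at 10.4% for its lowest count of 93 reads.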
